A study of Phaseolus vulgaris with 2 samples.

Results

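Glycosyl hydrolases are enzymes that cut the bond between a sugar and its neighbour, and plants use them in the cell wall, in the vacuole and in the chloroplast. In the wall they trim the side chains of xyloglucan, xylan and pectin, open cellulose and remove callose, so that the wall can loosen, thicken or be remodeled. Outside the wall, related enzymes split sucrose (invertases), handle raffinose family sugars and build or degrade starch. The genes described here are the 228 genes, of 27197 in the deposited expression table of common bean, that carry the Gene Ontology (GO) term for hydrolysis of O-glycosyl compounds and lie outside the xyloglucan endotransglucosylase/hydrolase (XTH) group. Of the 264 genes with the term, 33 were left out because they also carry a xyloglucan transferase, cellular glucan or secondary wall term, and 3 GH9 endoglucanase genes were left out by name. The rule itself uses no expression value.

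The RNA came from aerial tissue of wild-type plants of the drought-tolerant cultivar Pinto Saltillo (PS), 45 days old at the start of the treatment. Control plants were irrigated throughout, while drought plants received no water for 2 weeks. Each pool held 6 to 9 plants, the RNA of the pools was combined by condition, and the deposited table gives 1 value per gene and condition, although the protocol speaks of 2 libraries per treatment. Expression is given as FPKM (read fragments corrected for transcript length and for the number of mapped reads), so levels can be compared between genes. The change of a gene is given as a log2 ratio, taken after 1 FPKM was added to both its drought and its control value, which understates the change of genes with low values. With 1 value per condition there is no replicate check and no p-value. A gene is said to rise or fall when it differed at least 2-fold on the FPKM + 1 scale, and a limit of 4-fold is given beside it.

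The study gives read totals for both conditions, but the table holds no read counts per gene and its low values show no common step, so no counting interval was computed for a gene. Over all genes, FPKM summed to 1319560 in control and 1228410 in drought, and 3313 and 2916 genes of the 27197 were listed at 0. Photosynthesis genes, which mark green aerial tissue, had median levels of 79.5 FPKM in control and 84.8 FPKM under drought. At least 1 FPKM in either library was reached by 141 of 149 genes. Of these 141 genes 18 rose (12.8%) and 4 fell, and 106 had a higher value in drought. Their summed level went from 35069 to 47616 FPKM. Of 148 tested photosystem II assembly genes 17 rose (11.5%) and 7 fell, with sums of 23277 and 31927 FPKM. Lists of genes that mark other tissues were counted in the same way. Of all 19661 tested genes 11.7% rose and 6.6% fell. Of the genes of secondary cell wall biogenesis, 39 of 55 rose and 0 fell, their summed level went from 470 to 826 FPKM, and 15 of the 78 in the table were at 0 in control against 2 in drought. Of the xylem development genes, 3 of which are among the 228, 26 of 75 rose and 3 fell, with sums of 2562 and 2280 FPKM, and of the genes of cytokinesis by cell plate formation 23 of 157 rose and 0 fell, with sums of 1797 and 1782 FPKM. The DNA replication list had 5 of 102 genes rising and 0 falling, the stomatal complex list 24 of 116 rising and 1 falling, and the root hair list 19 of 119 rising and 3 falling. The part of tissue composition in the hydrolase values was not tested, and in pooled tissue more cells of a type and more RNA per cell cannot be told apart.

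Glycosyl hydrolase genes differed between drought and control in both directions. FPKM of at least 1 in either library was reached by 160 of the 228 genes, while 57 stayed under 1 FPKM in both and 11 were listed at 0 in both. None of the 10 genes listed at 0 in control alone, or of the 4 at 0 in drought alone, reached 1 FPKM in the other library. Among the 160 genes, 37 rose (23.1%, against 11.7% of the 19661 genes tested in the whole table) and 21 fell (13.1%, against 6.6%). At least 4-fold higher were 11 genes (6.88%, against 2.48%) and at least 4-fold lower were 9 (5.62%, against 1.62%). These counts depend on the setting. With a pseudocount of 0.1 the 4-fold counts were 27 and 15 (16.9% and 9.38%, against 6.63% and 2.52% of all genes tested). With at least 1 FPKM required in both libraries 132 genes remained. Of these 21 rose (15.9%, against 8.24% of all genes kept) and 7 were at least 4-fold higher (5.30%, against 1.76%). The 160 genes include 21 that reached 1 FPKM under drought alone and 7 that reached it in control alone, and such genes could differ in that direction only. Without any filter, 16.2% of the 228 genes rose against 8.49% of all genes in the table, and 9.21% fell against 4.77%. The median log2 ratio of the 160 genes was 0.22, beside −0.03 for all genes tested, and 102 of them stayed within 2-fold. It became 0.079 when only genes with at least 1 FPKM in both libraries were kept, where the median of all genes was −0.068.

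**Figure D1:**
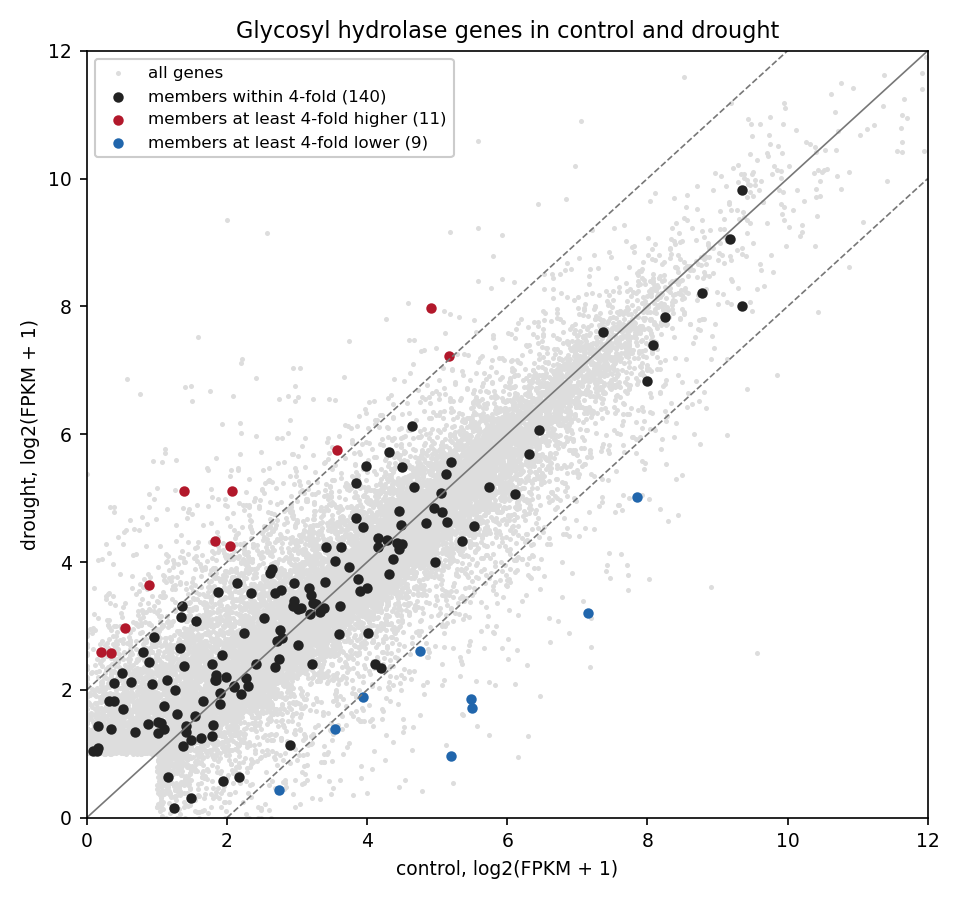
Expression of glycosyl hydrolase genes, each point being 1 gene, with log2(FPKM + 1) in control on the x axis and in drought on the y axis; grey points are all tested genes within the axes, larger points the 160 glycosyl hydrolase genes (members in the key), the solid line marks equal values and the dashed lines a 4-fold difference. The 11 genes at least 4-fold higher lie mostly at low control levels, and the 9 genes at least 4-fold lower all had over 5 FPKM in control.

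Genes that rose and genes that fell stood at different levels in control. The 37 rising genes had median levels of 1.55 FPKM in control and 7.87 FPKM under drought, and 16 of them were under 1 FPKM in control. The 21 falling genes had median levels of 17.4 FPKM in control and 2.70 FPKM under drought. None was under 1 FPKM in control, but the scale fixes this. With 1 FPKM added to both values, a 2-fold fall needs at least 1 FPKM in control. The control value enters both the level and the ratio, so the genes were also grouped by their mean FPKM of both libraries. Under a mean of 5 FPKM, 30.2% of 63 hydrolase genes rose against 20.0% of all genes at that level, and 9.52% fell against 4.72%. Between 5 and 20 FPKM, 18.6% of 59 rose against 10.3%, and 11.9% fell against 5.57%. Between 20 and 100 FPKM, 21.4% of 28 hydrolase genes rose against 6.32% of all genes, and 17.9% fell against 8.73%. Of the 10 hydrolase genes with a mean of 100 FPKM or more, 1 rose and 3 fell, against 7.83% and 10.9% of the 1418 genes of the table at that level. Their median log2 ratio was −0.49, against −0.08. The summed level of the 160 genes went from 5368 FPKM in control to 4857 FPKM under drought, although 96 of them had a higher value in drought (48% of all tested genes did).

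The wall hydrolases that rose most belong to families known to act on xylan, arabinan, galactan and callose. BXL3 (Phvul.006G208200, chromosome 6 from 31049425 to 31054049 in the deposited table), whose Arabidopsis counterpart releases xylose and arabinose from wall polymers, was at 1.63 FPKM in control and at 33.7 FPKM under drought (log2 ratio 3.72). This was the largest rise among the 160 genes. Gene symbols are those of the study's tables, which give the Arabidopsis counterpart only for genes the study listed as changed, so 203 of the 228 genes have none. A pair of bean genes that share the counterpart BXL2, of the same family, also rose, with Phvul.001G212100 going from 0.157 to 5.07 FPKM (log2 ratio 2.39) and Phvul.007G215100 from 0.557 to 3.34 FPKM (log2 ratio 1.48). XYL1 (Phvul.007G026900), an alpha-xylosidase that trims xyloglucan in Arabidopsis, went from 0.244 to 2.56 FPKM (log2 ratio 1.52). All of these except BXL3 were under 1 FPKM in control.

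One gene of the same xylosidase and arabinofuranosidase group moved the other way from a far higher level. Phvul.009G254300, annotated as an arabinofuranosidase of the apoplast, was at 649 FPKM in control and at 257 FPKM under drought (log2 ratio −1.33). It was the second most abundant hydrolase gene in control. The 5 tested genes of this group, which includes BXL3 and XYL1 but not the BXL2 pair by its GO terms, had a median log2 ratio of 0.85, while their summed level went from 679 to 329 FPKM. The median was 0.22 with at least 1 FPKM in both libraries or at least 5 FPKM in either. The sum follows Phvul.009G254300, whereas the median counts each gene once.

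Beta-galactosidases, which remove galactose from wall polysaccharides, showed the same split. Of 23 genes 14 were tested, of which 7 rose and 3 fell, with a median log2 ratio of 0.86. This median was 0.29 with at least 1 FPKM in both libraries, 0.18 without a filter and 1.52 with at least 5 FPKM in either library. BGAL5 (Phvul.001G010900, chromosome 1 from 950887 to 956952) was at 3.21 FPKM in control and at 33.6 FPKM under drought (log2 ratio 3.04). BGAL10 (Phvul.009G153100), which acts on xyloglucan in Arabidopsis, went from 2.57 to 19.1 FPKM (log2 ratio 2.49). These are the only beta-galactosidase genes past 4-fold upward. BGAL1 (Phvul.005G160000) went from 1.58 to 8.96 FPKM and BGAL3 (Phvul.002G167200) from 0.937 to 6.08 FPKM, with log2 ratios of 1.95 and 1.87. Phvul.003G258300, Phvul.004G096800 and Phvul.009G012700 rose to 7.47, 11.7 and 2.55 FPKM from 1.95, 3.43 and 0.312 FPKM. Control levels of all 7 rising genes were under 4 FPKM.

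The 4 beta-galactosidase genes with the highest control levels were all lower in drought. Phvul.009G232500, the most abundant of them, had 269 FPKM in control and 167 FPKM under drought, and its log2 ratio of −0.68 is within 2-fold. Phvul.010G139300 fell from 255 to 113 FPKM (log2 ratio −1.17). BGAL16 (Phvul.009G127500, chromosome 9 from 18880607 to 18889481) was at 43.7 FPKM in control and at 2.65 FPKM under drought (log2 ratio −3.62). Next in level, Phvul.003G050100 was at 30.1 and 27.9 FPKM, and the low gene BGAL8 (Phvul.011G077600) fell from 3.52 to 0.559 FPKM. The summed level of the 14 genes went from 623 to 409 FPKM. In drought the order of the family changed, since BGAL5 stood above BGAL16, which had been the higher of the pair in control.

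**Figure D2:**
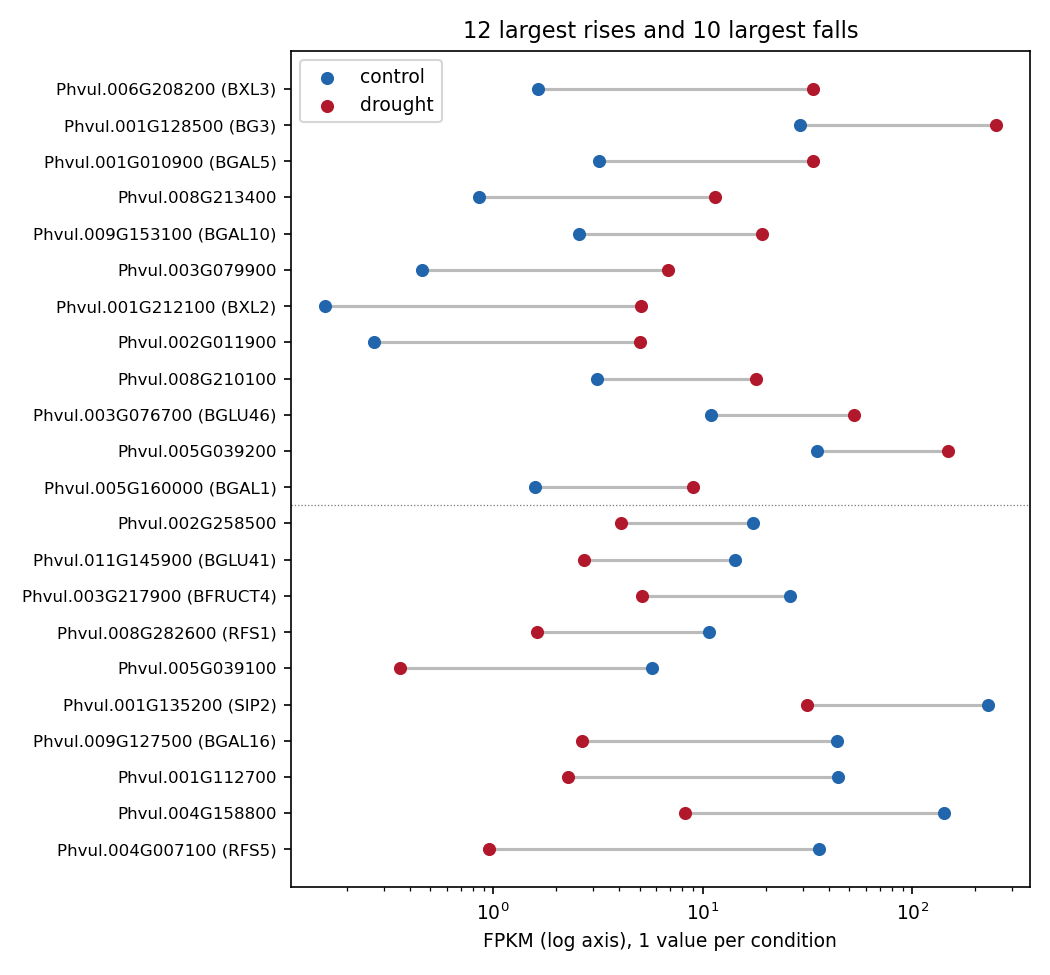
FPKM in the control library (blue) and the drought library (red) on a log axis for the 12 genes with the largest rise, above the dotted line, and the 10 with the largest fall, below it; each gene has 1 value per condition and no error bar. BXL3 went from 1.63 to 33.7 FPKM at the top and RFS5 from 35.8 to 0.957 FPKM at the bottom.

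Several glucanases of glycosyl hydrolase family 17, whose members cut callose and related glucans, were among the largest rises. The family is known here only through the Arabidopsis counterparts, given only for genes the study listed as changed. Family 17 genes that did not change therefore cannot be counted, and no share of the family that rose can be given. BG3 (Phvul.001G128500, chromosome 1 from 36431445 to 36433219), named for an Arabidopsis beta-glucanase of pathogen defense, was at 29.0 FPKM in control and at 251 FPKM under drought (log2 ratio 3.07). Only 1 gene past 4-fold upward, Phvul.005G039200, had a higher level in control. Family 17 genes with the counterparts AT2G05790 (Phvul.008G213400), AT1G11820 (Phvul.003G079900) and AT5G67460 (Phvul.002G011900) reached 11.5, 6.85 and 4.99 FPKM, each from under 1 FPKM in control, with log2 ratios of 2.75, 2.43 and 2.24. The gene with the counterpart AT5G56590 (Phvul.002G307800) went from 1.55 to 7.87 FPKM.

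Hydrolases with the GO term for a membrane anchor, several of which are glucanases attached to the outer face of the plasma membrane, had no falling gene. Of 25 such genes 17 were tested, 6 rose and 0 fell, and 14 had a higher value in drought. Their median log2 ratio was 0.71, beside 0.87 for the 149 other tested genes of the table with the same term, of which 65 rose and 8 fell. The highest of the 6 in drought was Phvul.001G014900, with 13.3 FPKM in control and 36.9 FPKM under drought. Most of the highest hydrolases of the whole set stayed within 2-fold. Phvul.011G077900, Phvul.009G256400 and Phvul.011G177000 share the terms for the vacuolar membrane and for defense against fungi. They had 651, 581 and 163 FPKM in control and 902, 531 and 194 FPKM under drought, with log2 ratios of 0.47, −0.13 and 0.24. Of the other genes among the 6 with the highest mean, Phvul.001G219800 was at 437 and 295 FPKM, without a subfamily term. In both libraries the 3 genes with the fungal defense term together stood far above the sum of the rising glucanases named here.

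Both tested genes with the cellulase term rose, and so did CEL3, named for a further endoglucanase. GH9B1 (Phvul.002G318800), named for an Arabidopsis endoglucanase, went from 0.307 to 3.31 FPKM, and CEL3 (Phvul.005G003100), which lacks the term, went from 0.750 to 5.06 FPKM. GH9B1 and CEL3 reached 1 FPKM under drought alone, and such genes could only be higher in drought. Phvul.003G089600, also annotated with cellulase activity, went from 24.0 to 69.1 FPKM (log2 ratio 1.49). The 5 other genes with the cellulase term were under 1 FPKM in both libraries. The 3 GH9 genes left out by name rose as well, with log2 ratios from 1.42 to 2.28. In the opposite direction, the family 5 gene with the counterpart AT1G13130 (Phvul.002G258500) fell from 17.4 to 4.05 FPKM (log2 ratio −1.86), just short of 4-fold.

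Beta-glucosidases release glucose from small glucosides, and those annotated for coniferin take part in lignin formation. BGLU46 (Phvul.003G076700), whose Arabidopsis counterpart frees lignin precursors from their glucosides, was at 10.9 FPKM in control and at 52.9 FPKM under drought (log2 ratio 2.18). Its neighbour Phvul.003G076800, with the same coniferin annotation, went from 5.42 to 10.5 FPKM, within 2-fold on this scale. The other coniferin genes were Phvul.007G273800, at 2.58 and 3.70 FPKM, and Phvul.005G082800, at 3.27 and 3.12 FPKM. Phvul.004G151800, the most abundant beta-glucosidase, was at 304 and 226 FPKM. BGLU41 (Phvul.011G145900), which does not carry the beta-glucosidase term, fell from 14.3 to 2.70 FPKM (log2 ratio −2.05).

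All 6 tested genes for invertases, which split sucrose into glucose and fructose, had a negative log2 ratio. Of them 4 fell, against 6.6% of all tested genes. The falling genes Phvul.011G005900 and Phvul.010G137900 reached 1 FPKM in control alone, and such genes could only be lower in drought. BFRUCT4 (Phvul.003G217900, chromosome 3 from 43438907 to 43442998), a vacuolar invertase, was at 25.9 FPKM in control and at 5.13 FPKM under drought (log2 ratio −2.14). The other tested vacuolar gene, Phvul.011G005900, fell from 2.86 to 0.497 FPKM. Extracellular invertase genes feed hexoses to growing tissue. Phvul.005G158500, Phvul.010G137800 and Phvul.010G137900 were at 39.8, 30.3 and 1.81 FPKM in control and at 19.2, 15.0 and 0.239 FPKM under drought, and the first and last of them passed 2-fold. Phvul.001G036800, the most abundant, was at 52.2 FPKM in control and had a log2 ratio of −0.56. The median log2 ratio of the 6 genes was −1.10, and their summed level went from 153 to 75.1 FPKM. This median was −1.68 with a pseudocount of 0.1 and −0.95 after scaling both libraries to the same sum. It was −0.99 with at least 1 FPKM in both libraries, at least 5 FPKM in either, or no filter.

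Genes of raffinose metabolism gave the largest fall of the set. They carry the hydrolase term although raffinose synthases transfer galactose onto sucrose and do not hydrolyse a wall polymer. RFS5 (Phvul.004G007100, chromosome 4 from 577912 to 582310), a raffinose synthase in Arabidopsis, was at 35.8 FPKM in control and at 0.957 FPKM under drought (log2 ratio −4.23). A further gene with the same counterpart, Phvul.009G175400, fell from 1.37 to 0.118 FPKM. Both RFS5 genes reached 1 FPKM in control alone, and such genes could only be lower in drought. SIP2 (Phvul.001G135200), an alpha-galactosidase that degrades raffinose in Arabidopsis, was at 230 FPKM in control and at 31.4 FPKM under drought (log2 ratio −2.83). RFS1 (Phvul.008G282600), named for a further raffinose synthase but without a raffinose term in the table, fell from 10.7 to 1.61 FPKM. Genes named for the synthase and for the degrading enzyme were thus both lower in drought.

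Other genes of this group stayed within 2-fold. Phvul.003G168800 and Phvul.009G171600, which share the raffinose terms of SIP2, were at 32.5 and 6.74 FPKM in control and at 26.5 and 9.44 FPKM under drought. Of the 6 tested genes with the raffinose synthase term 3 fell and 0 rose, and their summed level went from 309 to 69.9 FPKM. Of these, 4 also carry the raffinose alpha-galactosidase term, with sums of 272 and 68.8 FPKM. Most of the control sum came from SIP2, which was at 230 FPKM in control and at 31.4 FPKM under drought. The other falls were those of the RFS5 genes, which reached 1 FPKM in control alone. The 5 tested genes with the plain alpha-galactosidase term, enzymes that act on glycosides and glycosylceramides, had log2 ratios from −0.40 to 0.62 and none passed 2-fold. The highest of these ratios belonged to Phvul.004G135800, at 11.3 and 17.9 FPKM.

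In the remaining subfamilies at most 1 gene each passed 2-fold. Among 4 tested chitinase genes, Phvul.004G158800 (chromosome 4 from 44048043 to 44048823) was at 142 FPKM in control and at 8.20 FPKM under drought (log2 ratio −3.96), and the other 3 stayed within 2-fold, between −0.32 and 0.61, with Phvul.003G158500 the highest of them. Of 7 tested alpha-mannosidase genes, enzymes of glycoprotein trimming, Phvul.003G264400 rose from 1.52 to 5.33 FPKM. The most abundant of them, Phvul.004G022500, was at 18.5 and 19.4 FPKM. Of 3 hexosaminidase genes, Phvul.007G010100 rose from 5.15 to 13.3 FPKM, while the most abundant, Phvul.008G015400, was at 20.9 and 26.9 FPKM. Of 7 tested starch genes, the branching enzyme gene Phvul.009G011000 fell from 68.1 to 32.6 FPKM, while the other branching enzyme gene, Phvul.001G187600, was at 35.8 and 46.3 FPKM. The 3 xylanase genes had log2 ratios between 0.03 and 0.21, and the highest of them, Phvul.001G032300, was at 2.97 and 3.61 FPKM.

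**Figure D3:**
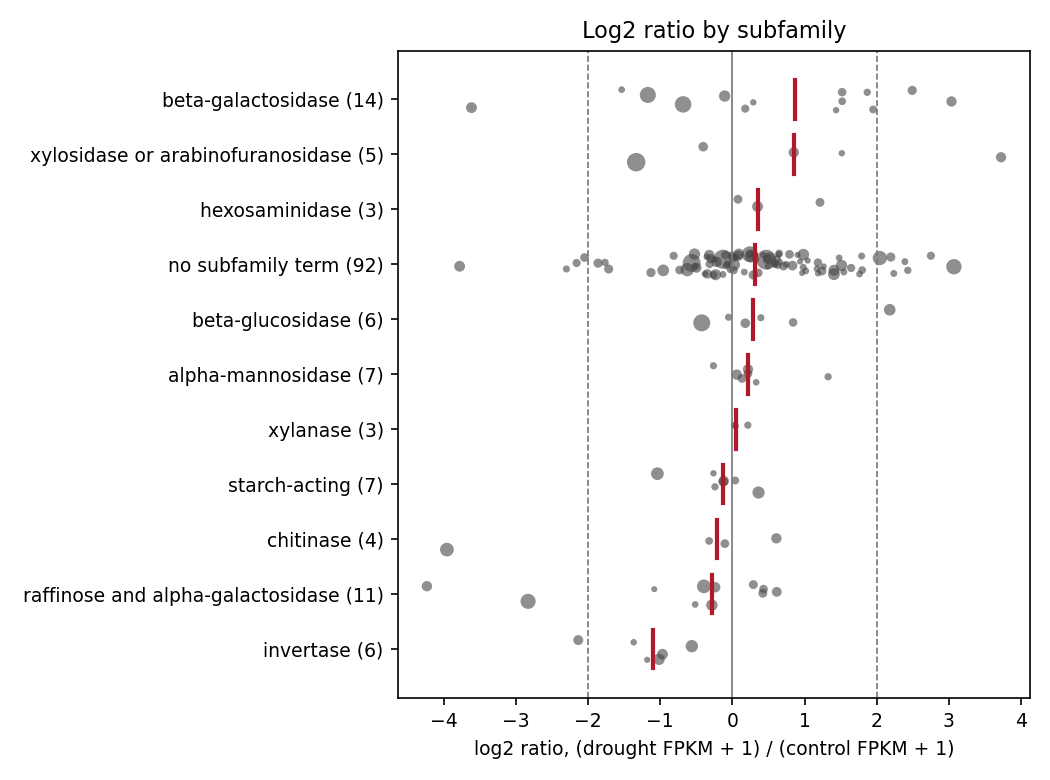
Log2 ratio (drought over control, 1 FPKM added to both) for each tested gene, by subfamily with at least 3 tested genes, with the number of tested genes in parentheses; a red bar marks the median, point size grows with the mean FPKM of both libraries, dashed lines mark 4-fold and points are spread vertically only to be seen. Of the subfamilies drawn, invertases have a median of −1.10 and beta-galactosidases of 0.86, the latter with their large points on the lower side.

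Genes with identical annotation did not always move together. Phvul.008G210100 and Phvul.001G112700 carry the same wall, plasmodesma and systemic acquired resistance terms. The former had 3.14 FPKM in control and 18.0 FPKM under drought, and the latter 44.1 and 2.28 FPKM, with log2 ratios of 2.20 and −3.78. They were picked for their opposite changes from 4 tested genes with the systemic acquired resistance term, of which 1 rose and 1 fell. Over these 4 genes the median log2 ratio was 0.45. Their summed level was 70.6 FPKM in control and 65.7 FPKM under drought. Opposite directions were also found for the neighbours Phvul.005G039100 and Phvul.005G039200, on chromosome 5 from 3774603 to 3782376 and from 3787178 to 3792989. The first fell from 5.70 to 0.359 FPKM, and the second rose from 35.1 to 148 FPKM, with a log2 ratio of 2.04 just inside the 4-fold limit. Both carry a carbohydrate catabolism term and no term for a substrate.

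Some hydrolase genes lie close together, and 70 of the 228 form 28 runs in which each gene is within 50000 bases of the next. No such count was made for other genes of the table. The pair on chromosome 5 was the only run with a rising and a falling gene. A run of 4 alpha-mannosidase genes on chromosome 1, Phvul.001G084400 to Phvul.001G084700, had log2 ratios from −0.26 to 0.22. The largest run, 6 genes on chromosome 8, had 4 tested genes within 2-fold. BGAL10 rose beside Phvul.009G153000, a beta-galactosidase gene that stayed under 1 FPKM in both libraries. Reads from similar copies can be split or assigned to either, so values of neighbouring copies are less certain. In addition, 4 of the 228 genes share their locus with another gene in the table. Of these, Phvul.005G123600 rose and Phvul.009G059700 fell.

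The genes were also grouped by where their product is placed. Of the 99 tested genes with the extracellular region term 27 rose and 11 fell, with a median log2 ratio of 0.33. Of the 61 without it 10 rose and 10 fell, with a median of −0.03. Among tested genes of the table that are not glycosyl hydrolases of this set, the extracellular ones had a median of 0.38, with 332 of 1202 rising and 100 falling. The share of rising genes was thus 27.3% in the hydrolases and 27.6% in the other extracellular genes, and the share of falling genes 11.1% and 8.32%. In the chloroplast 4 of 27 hydrolase genes rose and 4 fell (14.8% each), while 242 of the 3143 other genes there rose (7.70%) and 220 fell. In the vacuole 2 of 18 rose and 2 fell (11.1% each), against 8.13% and 6.15%. For genes with the term plant-type cell wall the median was 0.29 over 39 hydrolases and 0.73 over 191 other genes. None of these differences between groups of genes was tested.

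Other wall genes, outside the 228, were counted in the same way. Xyloglucan:xyloglucosyl transferase genes, which cut and rejoin xyloglucan, had 17 of 26 rising and 1 falling, with a median log2 ratio of 1.67. Cellulose synthase genes had 15 of 32 rising and 1 falling (median 0.91). Of pectate lyase genes, which cleave pectin without water, 5 of 10 rose and 0 fell (median 1.07). Pectinesterase genes, which remove methyl groups from pectin, had 20 of 46 rising and 9 falling, and enzyme inhibitor genes 19 of 44 and 8, with medians of 0.54 and 0.46. Plant-type cell wall organization genes had 40 of 130 rising and 2 falling, with a median of 0.22. The rest of carbohydrate metabolic process, apart from the 228 genes, had 43 of 178 rising and 13 falling, with a median of 0.12. Several of these lists overlap each other.

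**Figure D4:**
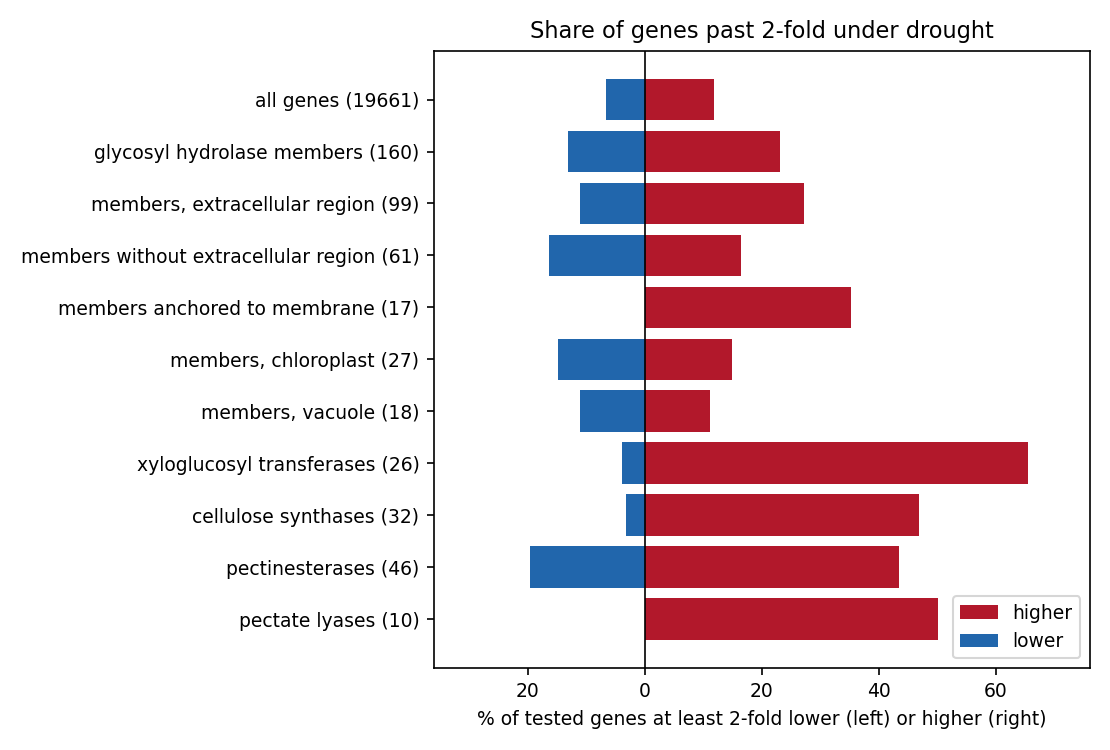
Percent of tested genes at least 2-fold lower (blue, to the left of 0) or higher (red, to the right) in drought for all genes, for the glycosyl hydrolase genes, for those genes by GO location and for other wall genes, with the number of tested genes in parentheses. The hydrolase genes have 23.1% rising and 13.1% falling, against 11.7% and 6.6% of all genes, and xyloglucosyl transferases have the longest red bar, 65.4%.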

How the data were processed

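Libraries of poly(A) RNA, with 1 sample for control and 1 for drought in the table, were sequenced from single ends. After trimming (Trimmomatic) and quality control (FastQC), the authors mapped the reads to the G19833 genome by TopHat, and Cuffdiff gave the deposited FPKM values. The submitters' processing notes also name CASAVA 1.8.2. Versions of the other tools are not given in the sources used here. The deposited table also holds the authors' fold changes, test statistics, p-values and q-values, which were not used. Its gene identifiers end in 1.0 while the methods name annotation 2.1, so it is unclear to which build the coordinates belong. GO lists stop at 1024 characters in 227 genes, 2 of them among the 228, so terms can be missing.

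GO terms were split at semicolons, and log2((drought + 1)/(control + 1)) was computed in Python 3.11.15 with pandas 2.3.3 for the 19661 genes with at least 1 FPKM in either library. With 1 value per condition no test was run and genes are described by limits of 2-fold and 4-fold beside the share of all genes past them. Named by rule were the 12 largest rises, the 10 largest falls, the 6 highest means, the highest mean, rise and fall of each subfamily with at least 3 tested genes, and the genes next to the 4-fold limit. All other genes were named after their values were seen. Subfamilies follow the other GO terms of the genes, and their terms were grouped after the table had been opened. Members and lists were chosen with earlier results of these data known. Alternatives were pseudocounts of 0.1 and 0.01, scaling by the 75th percentile or to a sum of 1000000, centring on the median, other filters on low values, and leaving out genes with a shared locus.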

Additional observations from a re-analysis of the deposited data

How the results depend on the processing

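No paired analysis was possible because each condition has 1 value per gene, and for the same reason no replicate could be left out. The count of genes at least 4-fold higher went from 11 to 27 with a pseudocount of 0.1 or 0.01 in place of 1 and to 7 with at least 1 FPKM in both libraries, and the count at least 4-fold lower went from 9 to 15 with either smaller pseudocount. The count of rising genes went from 37 of 160 to 21 of 132 with at least 1 FPKM in both libraries. Under that filter 15.9% rose, against 8.24% of all genes kept, and 5.30% were at least 4-fold higher, against 1.76%. The median log2 ratio of 0.22 became 0.079 with at least 1 FPKM in both libraries, 0.088 with at least 5 FPKM in either library and 0.064 without a filter. These counts stayed within 1.5 times, and the median within 0.1, under scaling by the 75th percentile or by the sum, centring, and leaving out genes with a shared locus. With a pseudocount of 0.1, 16.9% of the genes were at least 4-fold higher against 6.63% of all genes tested. Among the named genes, BGAL1 passed 4-fold with pseudocounts of 0.1 and 0.01 (2.44 and 2.50) and with 75th percentile scaling (2.03), and Phvul.002G258500 passed it with both pseudocounts (−2.07 and −2.10). BGLU41 dropped below 4-fold under both scalings (−1.97 and −1.89), and under scaling by the sum so did RFS1 (−1.97) and, narrowly, BFRUCT4 (−1.997). No named gene past 4-fold changed sign under the alternatives run. Low values limit the precision of these results, since 16 of the 37 rising genes were under 1 FPKM in control.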
